A study of Mus musculus with 9 samples.

Results

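The 47 genes described here are cell cycle genes expressed by MH-S cells, split by the phase of the cycle in which each is known to act. They were chosen by name from the 14771 genes of the expression table, in which all 47 were present, and all 47 passed the filter on low counts that left 11281 genes tested. Of these, 16 act at the G1/S boundary or in DNA replication, 27 act in G2 and mitosis (G2/M), and 4 are G1 cyclins or inhibitors of cyclin-dependent kinases (CDKs). MH-S is a mouse alveolar macrophage line transformed with SV40, so its cells divide in culture. RNA sequencing covered 9 libraries in 3 groups of 3. The SUR group is labelled with suramin, a polyanionic drug, and its protocol describes 200 µM suramin given together with 1 µg/ml lipopolysaccharide (LPS) for 4 h. The LPS group received 1 µg/ml LPS, a bacterial outer membrane component that activates TLR4, for 4 h. The CON group received culture medium alone, with no time stated. Libraries carry a number, 1, 2 or 3, within each group, and the labels do not say what the number stands for or whether libraries came from separate cultures, so every p-value below measures only the spread between these libraries.

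A dividing cell commits to a new round in G1, when D-type and E-type cyclins activate CDKs and release E2F factors from the retinoblastoma protein. E2F then drives genes for replication licensing and nucleotide synthesis. Before this release, a repressor complex called DREAM holds late genes down through CHR elements. In G2, MuvB with B-Myb and FOXM1 switches on the late genes through the same CHR elements, and NF-Y acts with them at CCAAT boxes. Whether these controls are intact in the SV40-transformed MH-S cells was not tested. Macrophages exposed to LPS are known to slow or stop proliferation. In bulk RNA, a larger share of cells in a phase and more mRNA per cell in that phase cannot be told apart.

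The promoters of the members carried this division of motifs. RefSeq promoters (build GRCm38.p6, each from 250 bases before to 50 after a start) were matched by symbol for 39 of the 47 genes; Ccna2, Ccnd1, Kif20a, Aurkb, Tpx2, Ccne2, Gins2 and Mcm4 were not matched. The search covered 3 motifs on both strands, namely the CHR element TTTGAA, the CCAAT box under its own letters, and an E2F site written as TTTCCCGC, TTTGGCGC, TTTCGCGC or TTTGCCGC. A gene was counted if any of its promoters held a match, and no motif contains another. A CHR element was present in 17 of 23 G2/M promoters (73.9%) and in 1 of 13 G1/S promoters (7.69%), against 20.2% of all 27025 genes with a promoter. The E2F site ran the other way, in 1 of 23 G2/M genes (4.35%) and 6 of 13 G1/S genes (46.2%), against 2.605% of all. CCAAT boxes were common in both lists, in 21 of 23 G2/M genes (91.3%) and 8 of 13 G1/S genes (61.5%), against 41.1% of all. All 17 G2/M genes with a CHR element also held a CCAAT box, a combination found in 7.97% of all genes. With the bases after the start left out, the CHR share of the G2/M genes was 34.8%, against 18.3% of all genes, since in the other 9 G2/M genes every CHR match reached past the start. A match is a string of letters and does not show binding.

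**Figure D1:**
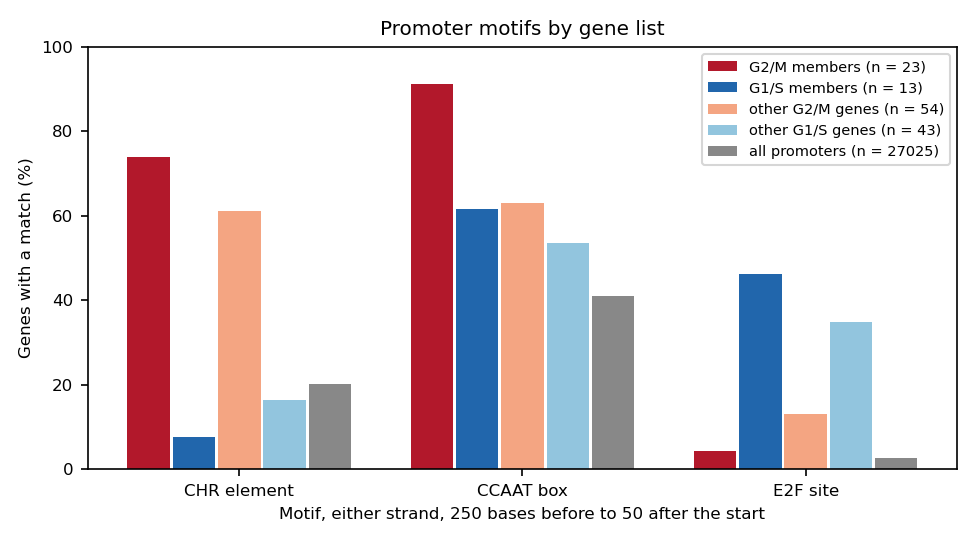
Share of genes (%, y axis) whose promoter held a CHR element, a CCAAT box or an E2F site (x axis) in the member lists, in 2 lists of further genes and in all promoters. The CHR bar is high for G2/M members (73.9%) and low for G1/S members (7.69%), and the E2F bar is high for G1/S members (46.2%) and low for G2/M members (4.35%).

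Sequence upstream of the start is shown for 6 members whose values carry the results below. Ube2c and Cdc20 had among the largest differences between numbered libraries, Cdk1 held all 3 motifs, Mki67 was the G2/M gene that also moved most with LPS, and Mcm5 and Mcm6 stood at opposite ends of the MCM genes. Each stretch ends at the base before the gene's outermost start, reads 5′ to 3′ on the gene's strand, and has motif matches in capitals, spelled as above or, where the match is on the other strand, as its reverse complement. Matches on the 2 strands can overlap, as in Ube2c, Mcm5 and Mcm6, and every base of an overlapping pair is in capitals.
Ube2c, chr2:164769729-164769928, plus strand: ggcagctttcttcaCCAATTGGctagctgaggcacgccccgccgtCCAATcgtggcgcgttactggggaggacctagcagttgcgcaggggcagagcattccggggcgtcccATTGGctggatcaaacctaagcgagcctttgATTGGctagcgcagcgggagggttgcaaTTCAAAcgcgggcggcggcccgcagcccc
Cdc20, chr4:118437344-118437543, minus strand: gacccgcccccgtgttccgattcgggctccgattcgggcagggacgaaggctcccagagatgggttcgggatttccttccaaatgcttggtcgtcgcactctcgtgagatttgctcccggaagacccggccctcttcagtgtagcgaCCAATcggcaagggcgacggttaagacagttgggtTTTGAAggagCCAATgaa
Cdk1, chr10:69352913-69353112, minus strand: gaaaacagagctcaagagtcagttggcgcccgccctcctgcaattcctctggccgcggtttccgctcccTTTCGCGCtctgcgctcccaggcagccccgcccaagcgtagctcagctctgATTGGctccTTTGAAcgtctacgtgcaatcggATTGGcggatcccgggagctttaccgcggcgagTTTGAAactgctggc
Mki67, chr7:135716451-135716579, minus strand: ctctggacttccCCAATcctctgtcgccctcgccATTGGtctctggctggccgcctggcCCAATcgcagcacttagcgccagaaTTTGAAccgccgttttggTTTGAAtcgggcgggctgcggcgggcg
Mcm5, chr8:75109309-75109467, plus strand: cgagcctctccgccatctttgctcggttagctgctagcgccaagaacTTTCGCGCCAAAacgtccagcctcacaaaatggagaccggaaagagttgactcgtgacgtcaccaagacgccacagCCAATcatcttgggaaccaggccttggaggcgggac
Mcm6, chr1:128359706-128359905, minus strand: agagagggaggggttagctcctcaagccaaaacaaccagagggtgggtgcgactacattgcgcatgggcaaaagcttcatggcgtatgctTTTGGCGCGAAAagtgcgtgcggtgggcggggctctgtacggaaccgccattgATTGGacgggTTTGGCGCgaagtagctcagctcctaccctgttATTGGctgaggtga
In Ube2c and Cdc20 a CHR element lies within 29 bases of the start with a CCAAT box near it, and Cdk1 and Mki67 each show 2 CHR elements. Mcm5 and Mcm6 show E2F sites and CCAAT boxes and no CHR element.

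Library totals lay between 15729402 and 16675250 counts, and the lowest count of any member was 34 (Ttk in LPS library 2). Levels below are CPM, normalised read counts per library after TMM scaling (trimmed-mean factors of 0.934 to 1.04). Of 14 macrophage markers, 13 were among the genes of the expression table and 11 were tested. The summed level of the 13 was 5113, 5528 and 5278 CPM in SUR, LPS and CON libraries 1. It lay between 7324 and 8214 CPM in the 6 libraries numbered 2 and 3. A sum weighs abundant markers most, and the median log2 difference of libraries 1 over the 11 tested markers was -0.25. Epithelial markers summed to 0 CPM in 8 libraries and 0.0660 CPM in LPS library 3, and neither the fibroblast and endothelial list nor the lymphocyte and neutrophil list passed 0.355 CPM in any library. These sums cover only the genes of the expression table, 1 of 8 epithelial, 6 of 8 fibroblast and endothelial, and 6 of 11 lymphocyte and neutrophil markers. The way reads were assigned to strands is not given in the sources used here. Of the members, 12 overlap a protein-coding gene on the other strand, among them Ube2c, Cdc20, Ccna2, Ccnd1, Ccnd3 and Mcm7, and 5 (Ccnb1, Ccnb2, Ccnd3, Pcna and Tyms) have an annotated pseudogene, so their counts may hold reads of these partners.

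The G2/M genes differed by replicate number in every group. All 27 were higher in the libraries numbered 1 than in those numbered 2 and 3, with the treatment group as a term in the model, and their median difference was 1.46 on the log2 scale, or 2.76-fold. Differences ran from 0.96 (Bub1b) to 2.12 (Ube2c) in log2. Same-numbered libraries deviated together from their group means, so the 3 libraries numbered 1 may be 1 unit. The p-values of this contrast count them as 3 and do not measure the spread between numbers. Over all 11281 tested genes the median was 0.01, 49.2% were called in either direction (edgeR's quasi-likelihood test, Benjamini-Hochberg adjusted p below 0.05) and 25.1% were called higher. At least a 2-fold rise was met by 26 of the 27, against 1.63% of all genes. In every one of the 3 groups, library 1 stood above both others for all 27 genes, which held for 27.7% of all genes. For 26 of them, all but Mki67, each library numbered 1 stood above all 6 others, against 13.4% of all genes. Their summed level was 1581, 1729 and 1691 CPM in SUR, LPS and CON libraries 1. In libraries 2 and 3 it was 567 and 612 CPM for SUR, 685 and 731 CPM for LPS, and 566 and 574 CPM for CON.

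**Figure D2:**
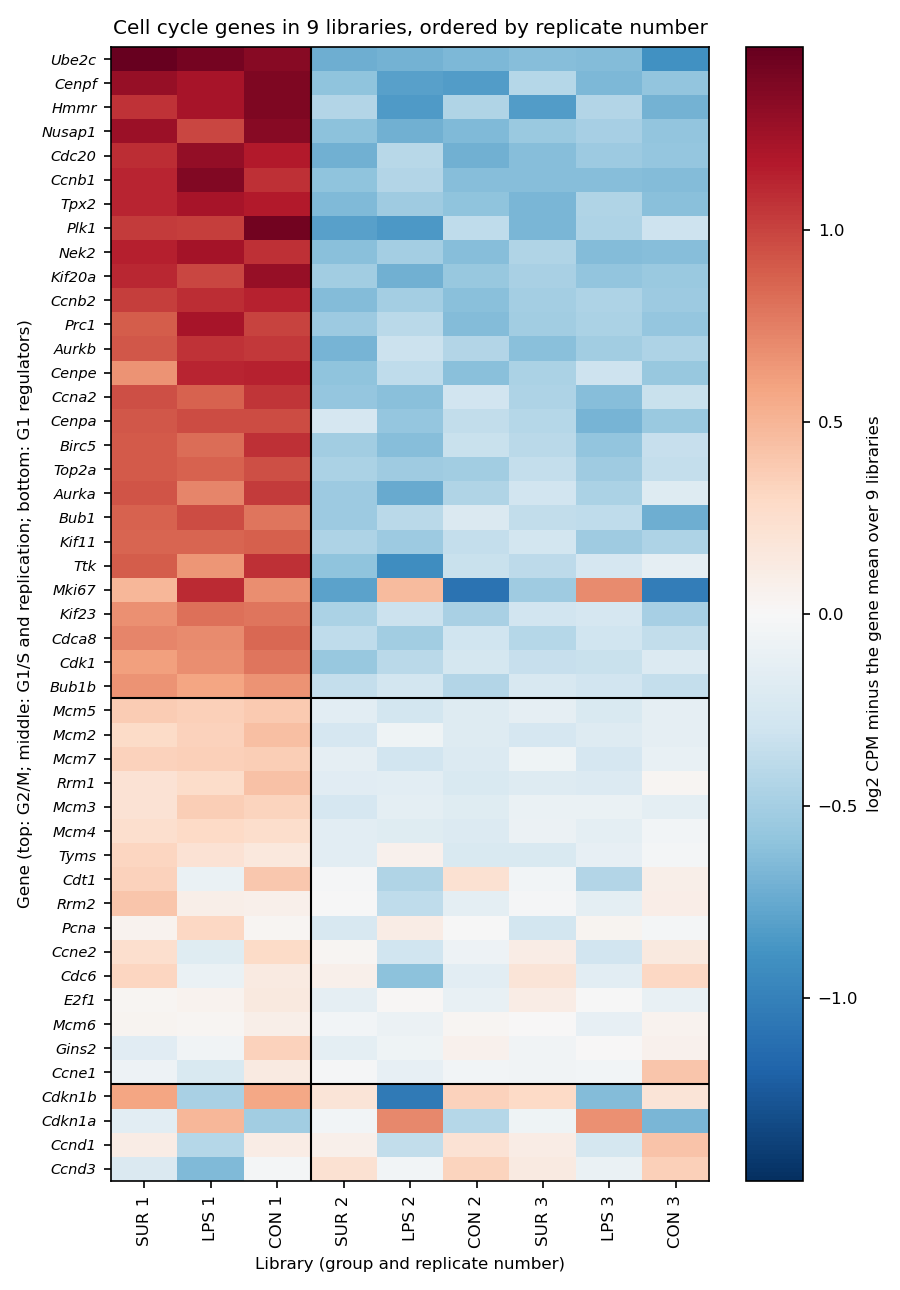
Levels of the 47 genes (rows) in the 9 libraries (columns, by number, the 3 libraries numbered 1 left of the line), as log2 CPM minus each gene's mean over the libraries. The upper block of G2/M genes is high in the libraries numbered 1, and the middle block of G1/S genes changes less. The bottom block of G1 regulators differs by treatment, and Ccnd3 and Cdkn1b in it also differ by number.

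Ube2c showed the widest gap, and its partner Cdc20 a wide one. Ube2c, the ubiquitin-conjugating enzyme of the anaphase-promoting complex, had 80.9, 77.6 and 73.8 CPM in SUR, LPS and CON libraries 1. The 6 libraries numbered 2 and 3 ranged between 15.6 and 18.8 CPM for Ube2c, and the sets did not overlap (log2 difference 2.12, SE 0.0523, adjusted p = 1.56e-10). Cdc20, the activator of that complex, had 74.9, 86.6 and 78.9 CPM in SUR, LPS and CON libraries 1, against 21.5 to 26.3 CPM in the others. For Cdc20 the log2 difference was 1.78 (SE 0.0470, adjusted p = 2.48e-10).

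Mitotic cyclins and their kinase moved in the same direction by unequal amounts. Ccnb1, the B-type cyclin that starts mitosis, had 84.6, 99.7 and 81.8 CPM in SUR, LPS and CON libraries 1 and 24.8 to 28.8 CPM in the others, a 3.43-fold difference (adjusted p = 4.41e-10). Ccnb2, the other B-type cyclin, differed by 3.08-fold, and Ccna2, the cyclin of S phase and G2, by 2.71-fold. Cdk1, the kinase they bind, had 44.2, 46.9 and 50.4 CPM in SUR, LPS and CON libraries 1, against 19.7 to 25.2 CPM in the others. Its log2 difference of 1.04 (SE 0.0543, adjusted p = 3.50e-08) was among the smallest of the list, although no library overlapped.

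Mitotic kinases and checkpoint genes also differed by unequal amounts. Plk1, a kinase of mitotic entry and spindle assembly, averaged 37.6 ± 6.2 CPM (SD, n = 3) in libraries 1 and 11.3 ± 1.8 CPM (SD, n = 6) in libraries 2 and 3. Nek2, a centrosome kinase, was 3.30-fold higher in libraries 1, Aurkb of the chromosomal passenger complex 2.85-fold, and Aurka of the spindle poles 2.52-fold. Among the spindle checkpoint genes, Bub1 was 2.46-fold higher, Ttk 2.45-fold and Bub1b 1.94-fold. Bub1b was the one member under 2-fold, with 63.0, 59.8 and 63.4 CPM in SUR, LPS and CON libraries 1 and 29.6 to 34.0 CPM in the others.

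Genes of the spindle and the kinetochore were high in the same libraries. Cenpf, an outer kinetochore protein, was 3.84-fold higher in libraries 1, Hmmr, a spindle-associated protein, 3.55-fold, Nusap1 of spindle microtubules 3.49-fold and the spindle assembly factor Tpx2 3.38-fold. The kinesins Kif20a, Kif11 and Kif23 were higher by 3.23-fold, 2.45-fold and 2.20-fold, and Prc1, which bundles the central spindle, by 2.95-fold. Cenpe, a kinetochore motor, the centromeric histone Cenpa and the passenger proteins Birc5 and Cdca8 were higher by 2.76-fold, 2.66-fold, 2.64-fold and 2.19-fold. Top2a, which untangles chromosomes, had 137.9, 134.5 and 141.4 CPM in SUR, LPS and CON libraries 1 and 50.9 to 57.7 CPM in the others. Each of these genes was called, with adjusted p-values over the whole G2/M list between 1.17e-10 and 8.54e-05.

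The size of the G2/M gap was similar across treatments in median, at 2.66-fold within SUR, 2.81-fold within LPS and 3.03-fold within CON. A formal test of whether a treatment difference changed with the number is given below. Libraries 2 and 3 were close to each other: between them, edgeR's test called 0 of the 47 members (3 at an unadjusted p below 0.05), beside 0.0798% of all genes. The median difference of number 2 from number 3 over the G2/M members was -0.05 in log2.

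**Figure D3:**
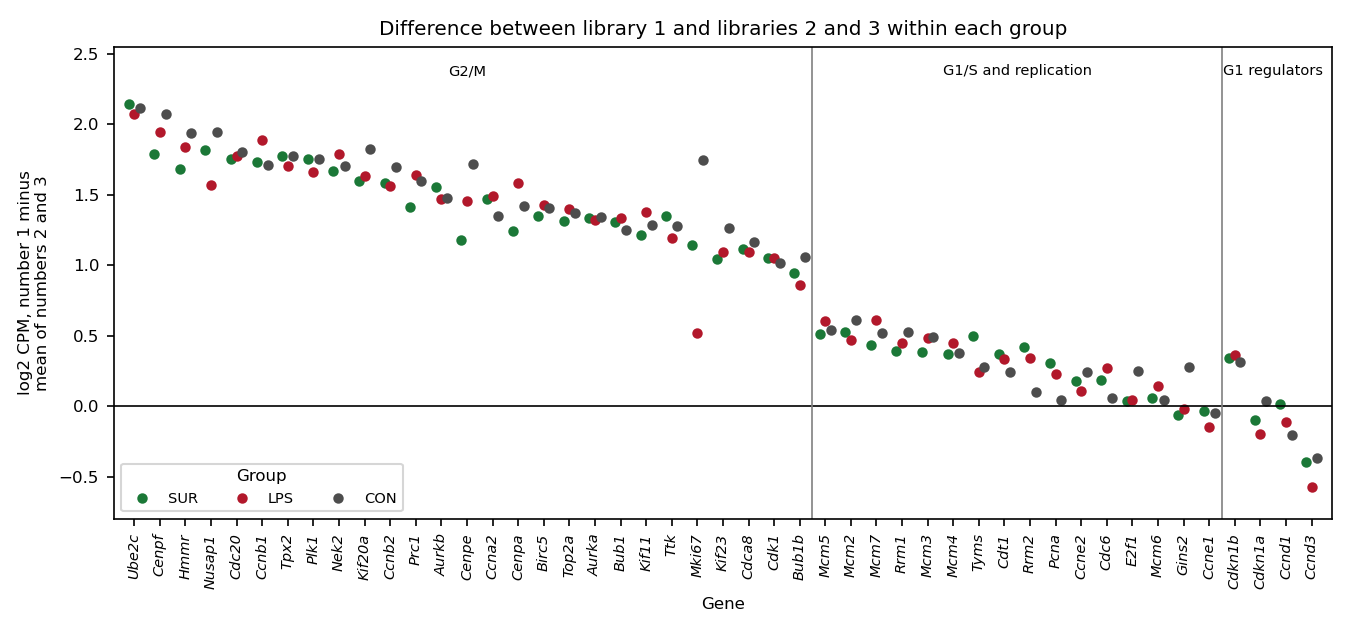
Difference of library 1 from the mean of libraries 2 and 3 (y axis, log2 CPM) for each of the 47 genes (x axis), with 1 point per group. All G2/M points lie above 0, between 0.52 (Mki67 in LPS) and 2.14 (Ube2c in SUR), G1/S points lie between -0.15 and 0.61, and Ccnd3 lies below 0 in each group.

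G1/S and replication genes were also higher in libraries 1, by much less. Of 16, 10 were higher and 0 were lower, with a median of 0.30 in log2, or 1.23-fold, and library 1 stood above both others in all 3 groups for 11. Over all tested genes, 25.1% were called higher, and library 1 stood above both others in all 3 groups for 27.7%. Within SUR, LPS and CON the median gap was 1.29-fold, 1.23-fold and 1.20-fold. Mcm2, a subunit of the replicative helicase, had 163.6, 170.4 and 183.7 CPM in SUR, LPS and CON libraries 1, against 113.3 to 128.2 CPM in the others (log2 difference 0.54, SE 0.0412, adjusted p = 9.30e-07). The other helicase subunits Mcm5, Mcm7, Mcm3 and Mcm4 were 1.47-fold, 1.44-fold, 1.37-fold and 1.32-fold higher. Mcm6 was the exception among the helicase subunits, with 143.9, 143.3 and 148.9 CPM in SUR, LPS and CON libraries 1 and 128.7 to 145.3 CPM in the others, a log2 difference of 0.08 (SE 0.0358) that did not pass (adjusted p = 0.0771).

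Nucleotide synthesis genes were also higher in libraries 1, and 6 of the G1/S genes did not pass the test. The ribonucleotide reductase subunits Rrm1 and Rrm2 were 1.37-fold and 1.22-fold higher in libraries 1, and Tyms, thymidylate synthase, 1.27-fold. Cdt1, a licensing factor, was 1.24-fold higher. Pcna, the sliding clamp, averaged 151.9 ± 16.6 CPM (SD, n = 3) in libraries 1 and 133.1 ± 14.02 CPM (SD, n = 6) in libraries 2 and 3. The Pcna call (log2 0.19, adjusted p = 0.00506) was lost without SUR library 1 (adjusted p = 0.0922). The 6 that did not pass were Mcm6, the E-type cyclins Ccne1 (log2 -0.08) and Ccne2 (0.18), the licensing factor Cdc6 (0.16), the transcription factor E2f1 (0.11) and the helicase component Gins2 (0.08).

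The 4 G1 regulators had no common direction with the number. Ccnd3, a D-type cyclin, was lower, with 41.7, 30.9 and 47.4 CPM in SUR, LPS and CON libraries 1. Libraries 2 and 3 held 56.8 and 52.99 CPM of Ccnd3 for SUR, 47.04 and 45.4 CPM for LPS, and 60.8 and 61.7 CPM for CON, so that library 1 was the lowest in every group (log2 -0.44, SE 0.0512, adjusted p = 2.51e-05). Cdkn1b, the CDK inhibitor p27, was higher in libraries 1 (log2 0.33, SE 0.0740, adjusted p = 0.00278). Ccnd1, the cyclin D1 gene, differed by -0.10 (SE 0.0547) and Cdkn1a, the CDK inhibitor p21, by -0.09 (SE 0.0560), and neither passed.

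Further genes of the same phases, listed apart from the members, also differed more in G2/M than in G1/S, in median. Of 66 other G2/M genes, 64 were higher in libraries 1 and 0 were lower, with a median of 1.08 in log2, and 40 were at least 2-fold higher. The phosphatase Cdc25c (log2 1.79), the kinesins Kif14 (1.74) and Kif18b (1.73) and the spindle protein Fam83d (1.72) led that list, and Pttg1 and Psrc1 did not pass. Of 54 other G1/S and replication genes, 37 were higher and 1, Rfc2, was lower, with a median of 0.31; the activator Dbf4 (1.06), the histone chaperone Asf1b (0.98) and Mcm10 (0.93) led. Among 45 tested regulators of RB, E2F, CDKs and checkpoints, 29 were higher and 4 were lower (median 0.24), with log2 differences of 1.62 for the phosphatase Cdkn3 and -1.58 for Myc. Of 19 tested p53 targets, 4 were higher and 2 were lower (median 0.03). These counts stand beside 25.1% of all tested genes called higher, 24.1% called lower and 1.63% at least 2-fold higher.

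Macrophage genes moved with the number as well. Of 11 tested markers, 7 were lower and 1, the Fc receptor gene Fcgr1, was higher in libraries 1, where 24.1% of all genes were called lower and 25.1% higher. Lyz2, the macrophage lysozyme, had 1749.5, 1760.4 and 1781.3 CPM in SUR, LPS and CON libraries 1, and its log2 difference was -1.05. The log2 difference was -1.32 for Mrc1, the mannose receptor, and -0.61 for Itgax, an integrin of alveolar macrophages. Over the 11 tested markers the median was -0.25. Their part in the cell cycle difference was not tested.

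The G1 regulators differed by treatment. Cdkn1a was higher and Cdkn1b and Ccnd1 were lower in LPS than in CON, and the SUR means of all 3 lay nearer to CON than the LPS means did. Over all genes, the test without a term for the number called 18.3% for LPS against CON, 17.2% for SUR against LPS and 0.425% for SUR against CON. A model that also held the replicate number as a block called 41.8%, 45.3% and 11.5% for these comparisons. All members called without the block were called with it and in the same direction. The first 2 comparisons share the LPS libraries, so their opposite signs are not independent of each other.

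Cdkn1a had 435.1, 468.7 and 463.0 CPM in the SUR libraries, 681.6, 788.5 and 771.8 CPM in the LPS libraries, and 338.9, 360.3 and 303.5 CPM in the CON libraries. The 3 groups did not overlap, with LPS highest and CON lowest. LPS against CON differed by 1.16 in log2 (SE 0.0856, adjusted p = 6.20e-05, higher in 3 of 3 numbers), and SUR against LPS by -0.71 (SE 0.0849, adjusted p = 0.000876, lower in 3 of 3). Cdkn1b had 34.9, 26.7 and 28.5 CPM in SUR, 16.7, 11.3 and 14.9 CPM in LPS, and 34.7, 29.4 and 26.5 CPM in CON. All LPS libraries lay below all others, while SUR and CON overlapped. The log2 difference of Cdkn1b was -1.08 for LPS against CON (SE 0.170, adjusted p = 0.00234) and 1.07 for SUR against LPS (SE 0.170, adjusted p = 0.00316).

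Ccnd1 had 223.0, 217.6 and 223.2 CPM in SUR, 154.2, 161.1 and 172.5 CPM in LPS, and 223.3, 240.0 and 276.4 CPM in CON. LPS was again below both other groups, by 0.60 in log2 against CON (SE 0.0850, adjusted p = 0.00133), and SUR exceeded LPS by 0.44 (SE 0.0849, adjusted p = 0.00742). These calls of Cdkn1a, Cdkn1b and Ccnd1 stood with any 1 library left out. Ccnd3 averaged 50.5 ± 7.8 CPM in SUR, 41.1 ± 8.9 CPM in LPS and 56.6 ± 8.0 CPM in CON (SD, n = 3 each). In edgeR's test over the 9 libraries its differences passed with the block, at -0.47 for LPS against CON (adjusted p = 4.88e-05, against 0.126 without the block) and 0.30 for SUR against LPS (adjusted p = 0.00121, against 0.325 without). All 4 G1 regulators, Ccnd3 included, were also called by limma on FPKM for LPS against CON and, without the libraries numbered 1, by edgeR without the block in both comparisons.

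**Figure D4:**
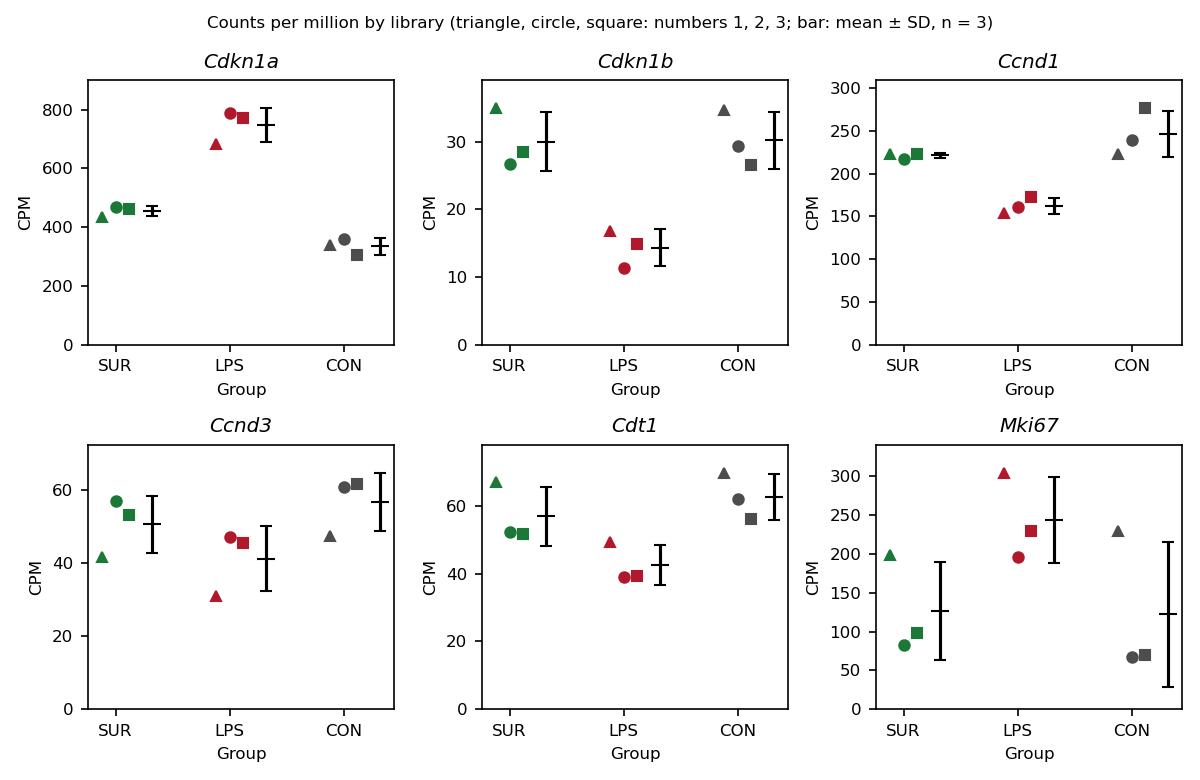
CPM (y axis) of 6 genes in the SUR, LPS and CON libraries (x axis), with 1 marker per library and the mean ± SD (n = 3) beside each group. Cdkn1a is highest and Cdkn1b and Ccnd1 are lowest in LPS with no overlap, and for Mki67 CON library 1 (229.5 CPM) lies among the LPS libraries.

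Calls among the G1/S genes for LPS against CON depended on the block and the scaling. With TMM scaling and no block, edgeR called 1 of 16, Cdt1. It had 67.0, 52.2 and 51.5 CPM in SUR, 49.4, 38.9 and 39.3 CPM in LPS, and 69.7, 62.0 and 56.1 CPM in CON. All 3 LPS libraries were below all CON libraries (log2 -0.56, SE 0.139, adjusted p = 0.0227). This call was lost without LPS library 2, LPS library 3, CON library 1 or CON library 2, with adjusted p-values of 0.0873, 0.0875, 0.0622 and 0.0639. With the block 5 were lower in LPS, namely Cdt1, Cdc6 (log2 -0.38), Ccne2 (-0.37), Ccne1 (-0.31) and Mcm6 (-0.12), and Pcna was higher (0.16, adjusted p = 0.0312). These 6 of 16 stand beside 41.8% of all genes called with the block in either direction. Without the block, upper-quartile scaling called 4 of the 16 lower and limma on FPKM 5, beside 1709 and 2048 of all tested genes. Upper-quartile scaling with the block called 10 lower and 0 higher, beside 4018 of all tested genes lower. Pcna was then not called (edgeR, adjusted p = 0.385). The sign was the same in all 3 numbers for 10 of the 16, 2 up and 8 down, against 63.1% of all genes. The median over the 16 was -0.09, beside -0.01 over all tested genes.

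The number of G1/S calls for SUR against LPS depended on the block. Here edgeR called 0 of the 16 without the block (4 at an unadjusted p below 0.05), DESeq2 called 2 and limma on FPKM 3. The block gave 4 higher, Cdc6 (log2 0.47), Cdt1 (0.42), Ccne2 (0.38) and Rrm2 (0.27), and 1 lower, Pcna (-0.30, adjusted p = 0.000799). Of all genes, 45.3% were called with the block in either direction. Pcna had 143.9, 117.8 and 114.6 CPM in SUR, 171.0, 149.9 and 142.8 CPM in LPS, and 140.9, 138.2 and 135.2 CPM in CON, so SUR was below LPS in each number although the groups overlapped by 1 library. The sign was shared by all 3 numbers for 9 of the 16, 6 up and 3 down, against 69.4% of all genes. Upper-quartile scaling with the block kept the calls of Cdc6, Cdt1, Ccne2, Rrm2 and Pcna.

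As a list, the G2/M genes showed no treatment call until the number was in the model. For LPS against CON edgeR called 0 of 27 without the block (0 at an unadjusted p below 0.05), and DESeq2 and limma on FPKM each called 0. The standard errors without the block were 0.389 to 0.855 in log2, so these fits could not detect differences of the size seen with the block, where they were 0.0426 to 0.187. With the block 6 were lower in LPS, namely Ttk (log2 -0.37), Plk1 (-0.35), Aurka (-0.30), Birc5 (-0.26), Ccna2 (-0.26) and Kif20a (-0.19). The 4 that were higher were Mki67 (1.20), Ccnb1 (0.19), Prc1 (0.19) and Cdc20 (0.15). These 10 of 27 stand beside 41.8% of all genes called with the block in either direction. Upper-quartile scaling moved the median of all genes to -0.105, against -0.01 with TMM. Used with the block, it ended the calls of Ccnb1, Prc1, Cdc20 and, among G1/S genes, Pcna, while the 6 lower ones and Mki67 were still called and 4 more, Cdk1, Nusap1, Top2a and Cdca8, were called lower. With this scaling and the block, 4018 of all 11281 tested genes were lower and 1468 higher in LPS than in CON. The sign was the same in all 3 numbers for 16 of the 27, 6 up and 10 down, against 63.1% of all genes.

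Aurka was the most even of the lower genes. It had 51.4, 18.6 and 22.2 CPM in SUR, 44.4, 16.1 and 19.5 CPM in LPS, and 55.2, 19.9 and 23.6 CPM in CON. LPS minus CON was -0.31, -0.30 and -0.28 in numbers 1, 2 and 3, and SUR minus LPS was 0.21, 0.20 and 0.19. Read across the group, library 1 dominated the spread, and read within a number, LPS was lowest each time. For SUR against LPS, edgeR called 0 of the 27 G2/M genes without the block (0 at an unadjusted p below 0.05), as did DESeq2 and limma on FPKM. With the block Aurka was higher (adjusted p = 0.00965) and Mki67, Cenpe, Cdc20, Prc1, Ccnb1 and Tpx2 were lower. Of all genes, 45.3% were called with the block in either direction. Upper-quartile scaling with the block ended the calls of Cenpe, Cdc20, Prc1, Ccnb1 and Tpx2 and kept those of Aurka and Mki67, and it called 6 more higher. With this scaling and the block, 3682 of all 11281 tested genes were higher and 1461 lower in SUR than in LPS. Without the block, this scaling turned the G2/M list's median to 0.05, against -0.04 with TMM.

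**Figure D5:**
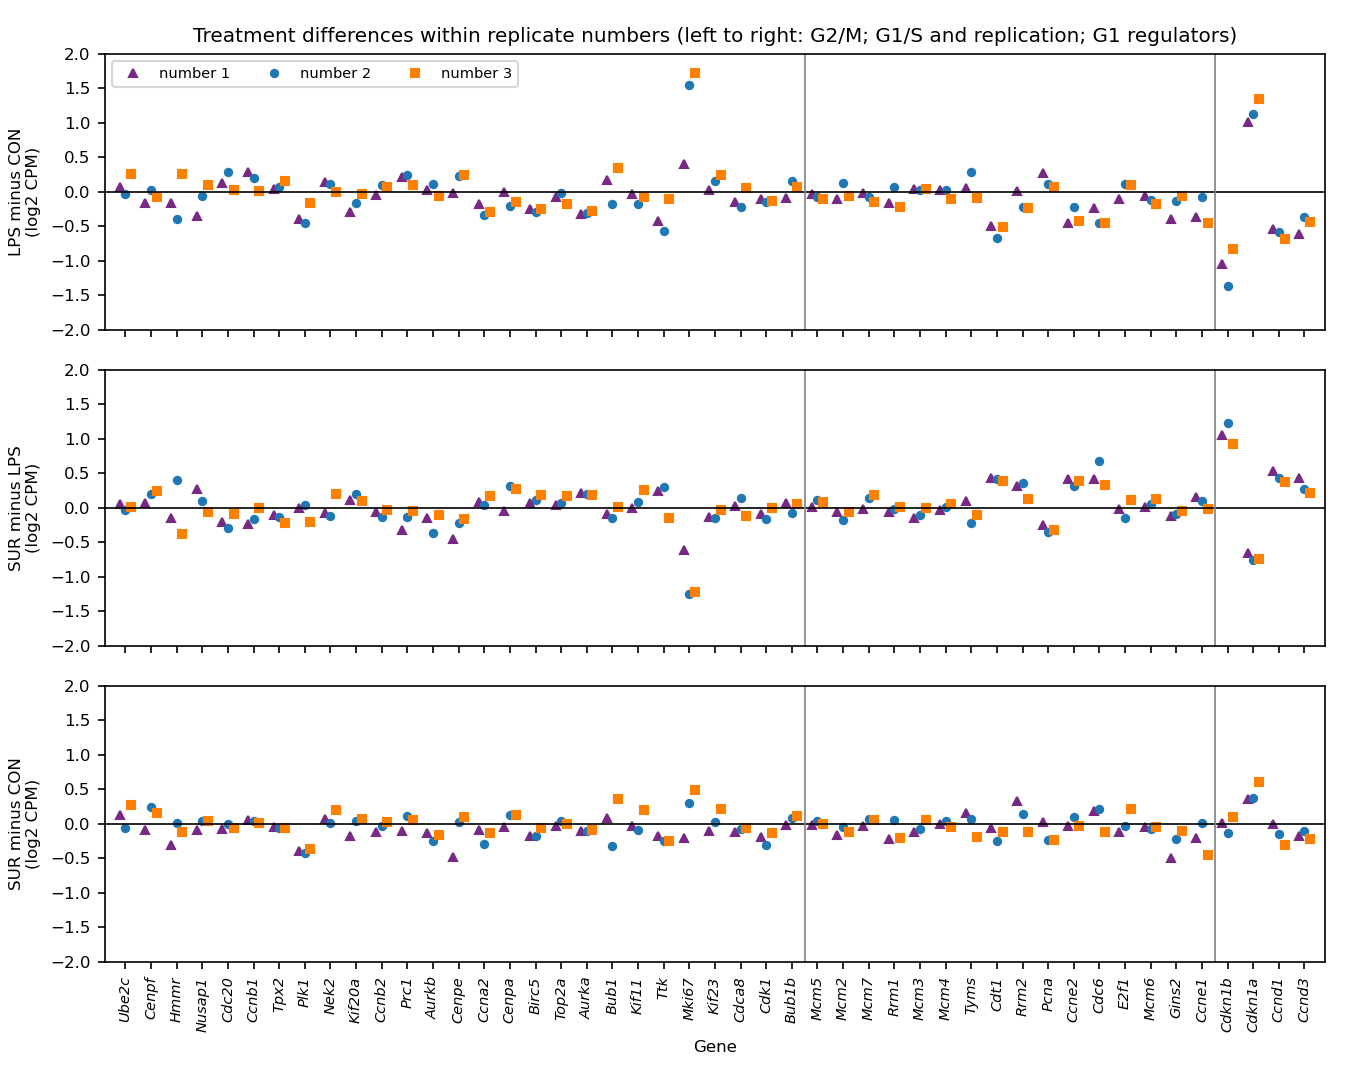
Treatment differences within each replicate number (y axes, log2 CPM) for LPS minus CON, SUR minus LPS and SUR minus CON, for the 47 genes (x axis). Most G2/M and G1/S points lie near 0, Cdkn1a, Cdkn1b and Mki67 lie farthest from it, and for Mki67 number 1 lies nearer 0 than numbers 2 and 3 in the upper 2 panels.

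Mki67, the proliferation marker that coats mitotic chromosomes, departed from the other G2/M genes. It had 199.3, 82.6 and 98.7 CPM in SUR, 304.7, 196.1 and 230.2 CPM in LPS, and 229.5, 66.8 and 69.9 CPM in CON. Within numbers 1, 2 and 3, LPS exceeded CON by 0.41, 1.55 and 1.72 in log2, and SUR lay below LPS by -0.61, -1.25 and -1.22. The LPS libraries overlapped the others only through SUR library 1 and CON library 1. Without the block, LPS against CON was 1.00 in log2 (SE 0.508, adjusted p = 0.246), with it 1.20 (SE 0.187, adjusted p = 0.000408), and without the libraries numbered 1 it was 1.65 (adjusted p = 7.78e-08). With single libraries left out and no block it ranged between 0.70 (without CON library 2) and 1.84 (without CON library 1), with adjusted p-values up to 0.529, and was called only without CON library 1 (adjusted p = 0.0103). SUR against LPS was -0.94 without the block (adjusted p = 0.259), -1.05 with it (adjusted p = 0.000980) and -1.25 without the libraries numbered 1 (adjusted p = 1.39e-06). With single libraries left out it ranged between -1.44 and -0.73, with adjusted p-values of 0.0698 to 0.499 and no call.

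Whether a treatment difference depended on the number was tested by an interaction term, number 1 against numbers 2 and 3. Each group held 1 library numbered 1, so the spread in this test came from libraries 2 and 3 alone. For LPS minus CON, Mki67 was the one member of 47 called (log2 -1.23, SE 0.156, adjusted p = 0.0118), beside 0.709% of all genes. The gap of library 1 over libraries 2 and 3 for Mki67 was 1.14 within SUR, 0.52 within LPS and 1.75 within CON. For SUR minus LPS the share of all genes called was 0% (244 genes at an unadjusted p below 0.05, 1 of them a member), and for SUR minus CON it was 0.284%, with 0 members called (3 at an unadjusted p below 0.05). A term that did not pass does not show that the differences were equal.

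SUR against CON left little among the members. Without the block 0 of 47 were called by edgeR (2 at an unadjusted p below 0.05), while DESeq2 called 1, Cdkn1a, and limma on FPKM 0. With the block Cdkn1a was higher in SUR (log2 0.45, SE 0.0579, adjusted p = 0.00104), with no SUR library overlapping a CON library. Plk1 was lower, with 34.1, 9.6 and 10.5 CPM in SUR, 34.0, 9.3 and 12.1 CPM in LPS and 44.7, 12.8 and 13.5 CPM in CON (log2 -0.39 for SUR against CON, adjusted p = 0.00745). Cdk1 was lower by less (-0.20, adjusted p = 0.0381). Of all genes, 11.5% were called with the block in either direction. The sign was the same in all 3 numbers for 19 of the 47, 3 up and 16 down, against 48.7% of all genes.

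Other cell cycle regulators included large treatment differences. Of 45 tested regulators of RB, E2F, CDKs and checkpoints, 3 were higher and 2 lower in LPS than in CON, beside 18.3% of all genes called. Myc, a growth-promoting transcription factor, had 0.52, 1.60 and 1.11 CPM in SUR, 2.98, 10.1 and 9.90 CPM in LPS, and 0.35, 0.73 and 0.42 CPM in CON, a log2 difference of 3.92 for LPS against CON (adjusted p = 0.00184). Fbxo5, the inhibitor of the anaphase-promoting complex known as EMI1, had 7.72, 6.27 and 5.56 CPM in SUR, 3.36, 2.25 and 2.38 CPM in LPS, and 9.17, 6.82 and 7.38 CPM in CON. The LPS libraries were the lowest for Fbxo5, by 1.54 in log2 against CON (adjusted p = 0.00112), and SUR exceeded LPS by 1.29 (adjusted p = 0.00377). For SUR against LPS 3 of the 45 were higher and 1, Myc, was lower (log2 -2.83), beside 17.2% of all genes called.

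Among 54 other G1/S and replication genes, 0 were higher and 3 were lower in LPS than in CON, namely Gins3 of the replicative helicase (log2 -1.23), the origin recognition gene Orc5 (-0.59) and Gmnn, the inhibitor of Cdt1 (-0.51). For SUR against LPS 2 were higher, Gins3 (1.05) and Orc5 (0.64). With the block 20 of the 54 were lower and 1 was higher in LPS than in CON, and 16 were higher and 3 lower in SUR than in LPS. With the block, 21.7% of all genes were called lower in LPS than in CON and 22.6% higher in SUR than in LPS. Upper-quartile scaling with the block gave 30 lower and 1 higher of the 54 in LPS against CON, and 26 higher and 0 lower in SUR against LPS. Under this setting, 4018 of all 11281 tested genes were lower and 1468 higher in LPS than in CON. For SUR against LPS, 3682 of all tested genes were higher and 1461 lower. Of 66 other G2/M genes, edgeR called 0 in LPS against CON without the block (1 at an unadjusted p below 0.05), as did DESeq2 and limma on FPKM, and 2 higher and 11 lower with it; upper-quartile scaling with the block gave 1 higher and 21 lower.

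Genes known as p53 targets, as Cdkn1a is, were more often called higher than lower with LPS. Whether p53 acted on them here was not tested. Of 19 tested, 10 were higher, 1, the sestrin gene Sesn1, was lower in LPS than in CON, and 8 were not called. Over all genes, 18.3% were called in either direction. Gadd45a, a stress gene that restrains the cycle, had 17.99, 21.1 and 25.6 CPM in SUR, 82.7, 93.9 and 87.1 CPM in LPS, and 9.46, 3.90 and 2.20 CPM in CON, with no overlap between groups. Its log2 difference was 4.08 for LPS against CON (adjusted p = 0.000216) and -2.03 for SUR against LPS (adjusted p = 0.00518). The antiproliferative gene Btg2, the kinase Plk2 and the cytokine Gdf15 were higher by 3.22, 2.96 and 2.49. For SUR against LPS 3 were higher and 9 lower, beside 17.2% of all genes called. For SUR against CON edgeR called 1, Gdf15, higher without the block (log2 1.20, adjusted p = 0.0375), beside 0.425% of all genes called. With the block 10 were higher, beside 11.5% of all genes called.

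Per transcript length, the G1 inhibitor was the most abundant member and the checkpoint kinase the least. On the TPM scale Cdkn1a averaged 437.0, 647.9 and 313.8 in SUR, LPS and CON, followed by Pcna with 200.9, 222.6 and 215.4 TPM. Ccnd1 averaged 98.7, 65.8 and 108.0 TPM, and Ube2c 95.6, 83.1 and 85.3 TPM. The mean of Ube2c stood for unlike libraries, at 183.4 TPM in number 1 and 40.3 TPM in numbers 2 and 3. Ttk was lowest, with 2.92, 2.36 and 3.30 TPM in SUR, LPS and CON.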

How the data were processed

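MH-S RNA from 9 libraries was sequenced. Reads were aligned with HISAT2 2.0.4 to GRCm38, as named in the submitters' processing notes; which tool counted them, with what strand setting and annotation, is not given in the sources used here. Per the file headers, the authors deposited expected counts for each gene without normalization (93.4% of values were whole), and these were rounded before testing. The authors' deposited FPKM values, which per the file headers are scaled by length and depth, served as an alternative, on log2(FPKM + 0.5), and the authors' deposited TPM values for levels between genes. The authors' deposited log2 fold changes and q-values were not used.

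edgeR 4.0.16 in R 4.3.3 tested 11281 of 14771 genes (filterByExpr; 3490 not tested) with TMM scaling and quasi-likelihood tests. The 3 treatment comparisons came from 1 fit of the 3 groups over all 9 libraries, and number 1 against numbers 2 and 3 from a fit with the group as a covariate. P-values were Benjamini-Hochberg adjusted over all tested genes, with a threshold of 0.05. Standard errors derive from the F statistic. Log2 CPM within numbers used a prior count of 2. Totals per library lay between 15729402 and 16675250 counts, and members had from 34 to 11694 counts in a library.

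Same-numbered libraries deviated together from their group means (correlations 0.435 to 0.801 in 9 pairs; other pairs -0.643 to 0.437), so numbers were taken to pair the samples, and a fit with the number as a block is given where it changed a call. This pairing comes from the data, not from the labels. DESeq2 1.42.0, limma 3.58.1, upper-quartile scaling, no filter and leaving out each library were alternatives. Scripts were tested on simulated data.

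Promoters are RefSeq's (GRCm38.p6), and overlaps come from GENCODE M21. The members, lists, contrasts and tests were chosen with earlier results of these data known. Named genes were Ccnd1, Cdkn1a, Cdkn1b, Ccne1, Mcm2, Pcna, Ccnb1, Mki67 and Cdk1 throughout, the 3 called members of each list with the largest change (mean log2 CPM at least 1), up to 4 called genes of each other list, and further members. Pttg1, Psrc1, Rfc2 and Sesn1 were named after their values were seen. Figures used matplotlib 3.10.9.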

Additional observations from a re-analysis of the deposited data

Results flagged for a closer look

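One result among the members differed between sets of libraries by a test of the difference itself. That test had 1 library numbered 1 in each group, so its spread came from libraries 2 and 3 alone. The log2 difference of Mki67 between LPS and CON was smaller in number 1 than in numbers 2 and 3 by -1.23 (SE 0.156, adjusted p = 0.0118, edgeR interaction term). The differences were 0.41 in number 1, 1.55 in number 2 and 1.72 in number 3, and Mki67 stood at 304.7 CPM in LPS library 1 and 229.5 CPM in CON library 1.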

How the results depend on the processing

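The replicate block gave 4714, 5109 and 1302 genes for LPS against CON, SUR against LPS and SUR against CON, with 6 and 5 G1/S members in the first 2, 10, 7 and 2 G2/M members, and 1 G1 regulator in SUR against CON. The block with upper-quartile scaling, added after seeing the data, gave 5486, 5143 and 1392 genes, 10 and 8 G1/S members, 11, 8 and 2 G2/M members, and 1 G1 regulator in SUR against CON. Without the block, upper-quartile scaling gave 4 and 3 G1/S members for the first 2 comparisons, limma on FPKM 5 and 3, and DESeq2 2 for SUR against LPS, with 259 genes and 1 G1 regulator for SUR against CON. Upper-quartile scaling moved the median gene of LPS against CON to -0.105 and FPKM to -0.132 (TMM -0.01), and the split of higher and lower calls there was 765 and 1709 and 677 and 2048 (TMM 1013 and 1056); for SUR against LPS it was 1595 and 616 and 1983 and 515 (TMM 1048 and 895). The G2/M median of SUR against LPS was -0.04 by TMM, 0.05 by upper quartile and 0.13 by FPKM. Leaving out libraries gave 1379 to 3415, 1208 to 3391 and 0 to 587 genes for the 3 treatment comparisons, 0 to 1, 0 to 2 and 0 to 1 G1/S members, 0 to 2, 0 to 1 and 0 to 1 G2/M members and, for SUR against CON, 0 to 1 G1 regulators; the upper ends came without the libraries numbered 1. For number 1 it gave 4355 to 5630 genes, 7 to 11 G1/S members, 2 to 3 G1 regulators and 27 to 27 G2/M members. Number 2 against number 3 gave 9 genes and 0, 0 and 0 members, with the sign reversed for Mcm5 (-0.042), Mcm7 (-0.067), Ccnd3 (0.043), Cdkn1b (-0.069), Cenpf (-0.18), Mki67 (-0.19) and Cdk1 (-0.11). The LPS interaction count was 80 genes, 50 without a filter, 51 by DESeq2 and 78 to 159 with a library left out (159 without CON library 2). Only libraries numbered 2 or 3 were left out for the interaction count. Reversals without a call were Ccnb1 for LPS against CON (-0.71 to 1.05 with a library left out), Ccnb1 for SUR against LPS (-1.02 to 0.75; 0.0065 by FPKM) and Cdk1 for SUR against CON (-0.64 to 0.22). The CHR share of G2/M promoters was 34.8% before the start only. The cause of these shifts was not tested. Alternative values of single genes and of promoter shares were counted together. Of these, 425 stayed the same, 25 gained a call, 11 lost one, 16 changed sign and 1 promoter share moved. The count includes number 2 against number 3, a different contrast, with the sign reversals listed for it above. Depth limits members such as Ttk, with 34 counts in its lowest library.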
